A study of Mus musculus with 2 samples.

Results

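The heat shock proteins and chaperones described here are 10 genes: Hspa1a, Hspa1b, Hspa8, Hspa5, Hsp90aa1, Hsp90ab1, Hsph1, Dnajb1, Hspd1 and Hsf1. They were taken by gene symbol from the transcript identifiers of the alignment-free tables, in which the authors estimated transcript levels directly from reads and an index. All 10 were found among 55536 annotated genes, of which 22028 are protein-coding, and the annotation gives them 66 transcripts.

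Nucleoplasmic RNA of primary macrophages grown from bone marrow of C57BL/6J mice was sequenced after ribosomal RNA had been depleted. The cells had received lipid A, the part of bacterial lipopolysaccharide that Toll-like receptor 4 recognises, for 25 min at 100 ng/ml. The 2 libraries form 1 group and are labelled biological replicates 1 and 2, from 500 ng and 1 µg of RNA. No genetic change is listed, age and sex were not collected, and both libraries carry the same donor entry, so an SD given here (n = 2) is the spread between these libraries and may be technical. One label calls the fraction nucleoplasmic and another calls it the nucleus. The design holds no untreated or heated cells, so all values are levels 25 min after lipid A, and none is an induction. In bulk RNA, fewer cells that express a gene and less RNA per cell cannot be told apart.

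Chaperones keep other proteins from aggregating while they fold. HSP70 proteins clamp onto exposed hydrophobic stretches in a cycle driven by ATP: J-domain proteins such as Dnajb1 bring the client and start ATP hydrolysis, and exchange factors such as Hsph1 release it. HSP90 proteins act later on partly folded kinases and receptors, Hspd1 encloses proteins inside mitochondria, and Hspa5 works in the endoplasmic reticulum. Hsf1 is the transcription factor that turns on the cytosolic heat shock genes, and free chaperones hold it inactive until damaged proteins occupy them.

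The gene tables held 13506939 and 17932332 expected counts on genes in replicates 1 and 2, of which the 10 genes took 0.128% and 0.134%. The libraries were kept as separate samples because the labels call them biological replicates. Their counts differ too much to be 1 library deposited again (chi-square divided by its degrees of freedom, 52.4 over 15442 genes), which does not show separate cultures or animals. All 8 macrophage markers were detected, with summed levels of 3107 and 2652 TPM, a unit that corrects for transcript length. Of the 20 markers of other blood and connective tissue cells, 2 were detected, S100a9 and Pf4, and Cd3e, Hbb-bs and Ly6g had 0 counts in both libraries. The neutrophil, B cell, T cell, dendritic cell and fibroblast markers summed to between 0.03 and 3.91 TPM in each library, Pf4, a platelet chemokine gene, had 70.3 and 48.3 TPM, and their part in the chaperone levels was not tested.

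Each of the 10 genes was detected, at levels that ran from Hspa8 and Hspa5 near the top of the transcriptome to Hspa1b just over the detection limit. All 10 had at least 1 TPM in both libraries, beside 44.5% of protein-coding genes. Their median level was 4.19 ± 0.46 (SD, n = 2) on the log2(TPM + 1) scale, beside 3.40 ± 0.33 for the protein-coding genes that were detected. For description, the levels in the plot by library were split into 3 tiers. Hspa8, Hspa5 and Hsp90ab1 were above 60 TPM, and Hsp90aa1, Hsf1 and Hspd1 were between 11.3 and 38.1 TPM. Hsph1, Hspa1a, Dnajb1 and Hspa1b were below 6 TPM. The step from Hspa5 to Hsp90ab1 inside the top tier (2.61 and 3.73 times) exceeded that from Hsp90ab1 to Hsp90aa1 (2.11 and 2.54 times). Within the tiers, Hspa8 and Hspa5 changed places between libraries, as did Hsph1 and Hspa1a, while the ranges of Hsp90aa1 and Hsf1 and those of Hsf1 and Hspd1 overlapped. The other 5 neighbours in the order did not overlap in the gene tables. Of these, Hspa1a and Dnajb1 stood in the reverse order in the alignment-free table of replicate 1 (1.29 and 1.68 TPM), and their deposited intervals overlap in that library (2.13 to 3.25 and 1.97 to 2.93 TPM).

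**Figure D1:**
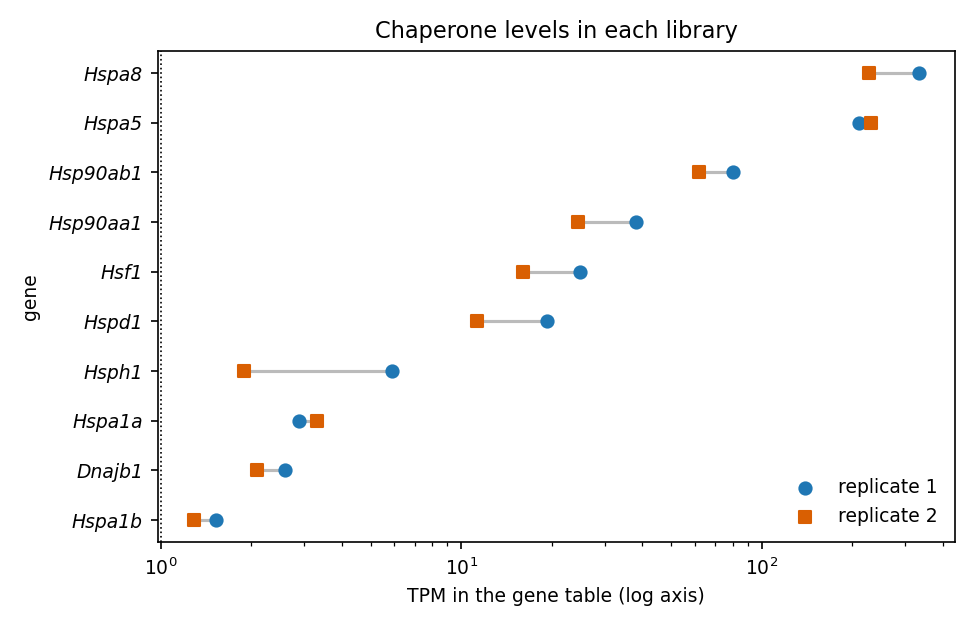
TPM of each of the 10 genes in the gene table on a log axis, with a circle for replicate 1, a square for replicate 2 and a grey line between them; the dotted line marks the detection limit of 1 TPM. Genes are ordered by mean level, from Hspa8 (332 and 228 TPM) down to Hspa1b (1.53 and 1.29 TPM), and Hsph1 has the widest gap.

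The regulator Hsf1 was in the middle tier. Hsf1 (ENSMUSG00000022556.11, mm10 chromosome 15, 76477422 to 76501913, plus strand) had 540 and 579 expected counts, or 24.8 and 16.1 TPM, with a mean of 20.5 ± 6.17 TPM (SD, n = 2). That mean exceeded the level of 87.5% of protein-coding genes. Little of this RNA was assigned to the transcripts that encode the factor. Its 7 protein-coding transcripts held 26.6% and 31.9% of the gene's counts, a mean of 29.3% ± 3.72, and 7.65% of 9178 protein-coding genes had a lower coding share (genes with several annotated transcript types and at least 10 counts per library). Its 5 transcripts annotated as retained-intron, a type named for keeping an intron that a coding form removes, held 37.7% ± 2.42. Whole introns of the coding form Hsf1-214 were found only in Hsf1-210 and Hsf1-212, and not in Hsf1-208, which held 96.65 and 82.6 counts. The 3 Hsf1 transcripts annotated as targets of nonsense-mediated decay held 32.5% ± 1.62. The transcript with the highest mean level was Hsf1-212, which keeps the last of the 10 introns of the coding form Hsf1-214 (chromosome 15, 76500054 to 76500266, 213 bases) and made up 20.2% and 13.4% of the gene's TPM. Single coding forms of Hsf1 were not stable between libraries: Hsf1-214 went from 119.9 to 51.6 counts and Hsf1-205 from 0 to 99.95 counts.

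Hsf1 binds alternating repeats of GAA and TTC. The windows that carry these letters are shown for the genes Hsf1 is known to control, next to the element of Hspa5 that answers a different stress. RefSeq promoters on GRCm38.p6, from 250 bases before to 50 bases after a start site, were matched for 6 of the 10 genes. They were searched on both strands for the pairs GAANNTTC and TTCNNGAA, for the triples made when these overlap (GAANNTTCNNGAA or TTCNNGAANNTTC), for CCAAT, and for the endoplasmic reticulum stress element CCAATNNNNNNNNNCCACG, which contains CCAAT. Of 32851 promoters, 7.86% held the pair GAANNTTC, 8.52% the pair TTCNNGAA, 0.603% a triple, 37.4% CCAAT and 0.119% the endoplasmic reticulum stress element. Hspd1 at its second start site and Hsph1 held a triple, Hspa1a and Hspa1b held the pair GAANNTTC alone, Hspa5 held the stress element, and Dnajb1 held none of the repeats in this window. Printed 5′ to 3′ on the gene's strand with the matched letters in capitals, the windows of Hspd1 (chr1:55088053-55088082, minus strand), Hsph1 (chr5:149636287-149636316, minus strand) and Hspa5 (chr2:34772020-34772049, plus strand) read as follows.
Hspd1: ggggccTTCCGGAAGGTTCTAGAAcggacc
Hsph1: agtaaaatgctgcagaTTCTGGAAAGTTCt
Hspa5: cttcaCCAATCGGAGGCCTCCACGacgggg
The Hspd1 capitals span 2 overlapping triples, from 144 to 127 bases before the start, and the same letters lie 89 to 72 bases before the start of its neighbour Hspe1 on the other strand. The Hsph1 triple lies 37 to 49 bases after the first of its listed start sites and 16 to 28 after the other, and the Hspa5 element 65 to 47 bases before. A match describes letters only, and no binding was measured.

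The stress-inducible HSP70 genes Hspa1a and Hspa1b were present at low levels. Both are genes of 1 exon on the minus strand of mm10 chromosome 17: Hspa1a (ENSMUSG00000091971.3) at 34969190 to 34972156 and Hspa1b (ENSMUSG00000090877.3) at 34956436 to 34959238. Hspa1a had 108.7 and 212.1 counts, or 2.89 and 3.32 TPM (mean 3.11 ± 0.304), and Hspa1b had 54 and 77.3 counts, or 1.53 and 1.29 TPM (mean 1.41 ± 0.170). Hspa1a was the higher of the pair in each library and their ranges did not overlap.

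These copies can be told apart only in part. Their transcripts aligned from base 1 over 2184 columns with 2171 identical, or 99.4%, and 58.8% of the stretches of 50 bases in Hspa1a also occur in Hspa1b. The posterior SD that the authors deposited for the count was 5.36 and 7.34 for Hspa1a and 5.30 and 7.21 for Hspa1b. Summed, the pair had 162.7 and 289.4 counts, or 4.42 and 4.61 TPM, a mean of 4.52 ± 0.134, and Hspa1a took 66.8% and 73.3% of them. In the alignment-free tables its share was 70.1% and 72.5%, so Hspa1a led in each library by either quantification. The protein-coding gene Gm20481 lies inside Hspa1a on the opposite strand and was listed at 0 counts. The likeness of the pair runs on past the start site: of the 250 bases upstream, 247 were identical, as the promoters of Hspa1a (chr17:34972157-34972406, minus strand) and Hspa1b (chr17:34959239-34959488, minus strand) show, with the heat shock pair and the CCAAT box (read as ATTGG) in capitals.
Hspa1a: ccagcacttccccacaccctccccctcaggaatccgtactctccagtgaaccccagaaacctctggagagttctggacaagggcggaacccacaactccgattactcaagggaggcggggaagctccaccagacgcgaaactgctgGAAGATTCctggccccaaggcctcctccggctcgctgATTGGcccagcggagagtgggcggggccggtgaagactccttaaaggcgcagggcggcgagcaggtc
Hspa1b: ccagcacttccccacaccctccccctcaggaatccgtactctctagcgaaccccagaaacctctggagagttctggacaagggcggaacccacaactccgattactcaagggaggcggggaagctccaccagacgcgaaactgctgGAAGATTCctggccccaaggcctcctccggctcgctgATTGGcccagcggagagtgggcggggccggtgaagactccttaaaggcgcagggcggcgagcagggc
In both, the heat shock pair lies 104 to 97 bases and the CCAAT box 67 to 63 bases before the start.

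The constitutive HSP70 gene Hspa8, which folds newly made proteins in unstressed cells, had the highest mean level of the 10 over all its transcripts. Hspa8 (ENSMUSG00000015656.17, chromosome 9, 40800984 to 40810087, plus strand) had 6321 and 8302 counts, or 332 and 228 TPM, a mean of 280.0 ± 74.1 TPM (SD, n = 2). That mean exceeded the level of 99.5% of protein-coding genes. On coding transcripts alone Hspa8 had 136.0 and 113.6 TPM, below the 172.2 and 170.1 TPM of Hspa5 in each library. Over all its transcripts, Hspa8 stood 115.0 and 68.6 times above Hspa1a in TPM within a library, and 133 and 75.7 times in the alignment-free tables. Of the stretches of 50 bases in Hspa8, 39.4% also occur in other genes, among them 12 pseudogenes that together were given 100.9 and 55.3 counts.

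Hspa8 RNA was spread over coding, retained-intron and processed transcripts. Its 3 coding transcripts held 55.9% and 60.8% of the counts (40.9% and 49.9% of TPM), led by Hspa8-202 with 2488 and 3466 counts. Its 3 processed transcripts held 8.43% and 3.89% of counts but 28.0% and 14.9% of TPM. Its 4 retained-intron transcripts held 35.6% and 35.4% of counts, a mean of 35.5% ± 0.19. That retained-intron share exceeded those of 73.7% of the 6879 protein-coding genes that have one annotated and reached 10 counts in each library. Hspa8-208 alone was assigned 1601 and 2189 counts. It keeps introns 2, 5, 6, 7 and 8 of the 8 introns of Hspa8-202, and introns 5, 6 and 8 are the ones that hold the small nucleolar RNA genes Snord14c, Snord14d and Snord14e, which guide methylation and processing of ribosomal RNA. The 3 host introns run from 40803530 to 40803739 (210 bases), 40803943 to 40804164 (222 bases) and 40804696 to 40804931 (236 bases) on chromosome 9. Their edges, from GENCODE M21, are printed with 20 exon bases in lower case and 20 intron bases in capitals. No reads at these edges were examined, and retained introns were not told apart from RNA not yet spliced.
Intron 5, start: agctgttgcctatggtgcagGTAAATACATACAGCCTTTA
Intron 5, end: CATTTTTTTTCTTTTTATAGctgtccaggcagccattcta
Intron 6, start: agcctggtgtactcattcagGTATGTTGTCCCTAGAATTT
Intron 6, end: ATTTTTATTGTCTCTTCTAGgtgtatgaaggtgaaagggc
Intron 8, start: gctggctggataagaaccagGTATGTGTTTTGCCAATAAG
Intron 8, end: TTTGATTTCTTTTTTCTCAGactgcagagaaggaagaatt
Each starts with GT and ends with AG. The snoRNA genes themselves, of 86, 86 and 90 bases, were listed at 0 counts in both gene tables; the alignment-free table of replicate 2 gave Snord14c 8.56 and Snord14d 10.6 counts, and the labels give a fragment size range of 250 to 400.

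**Figure D2:**
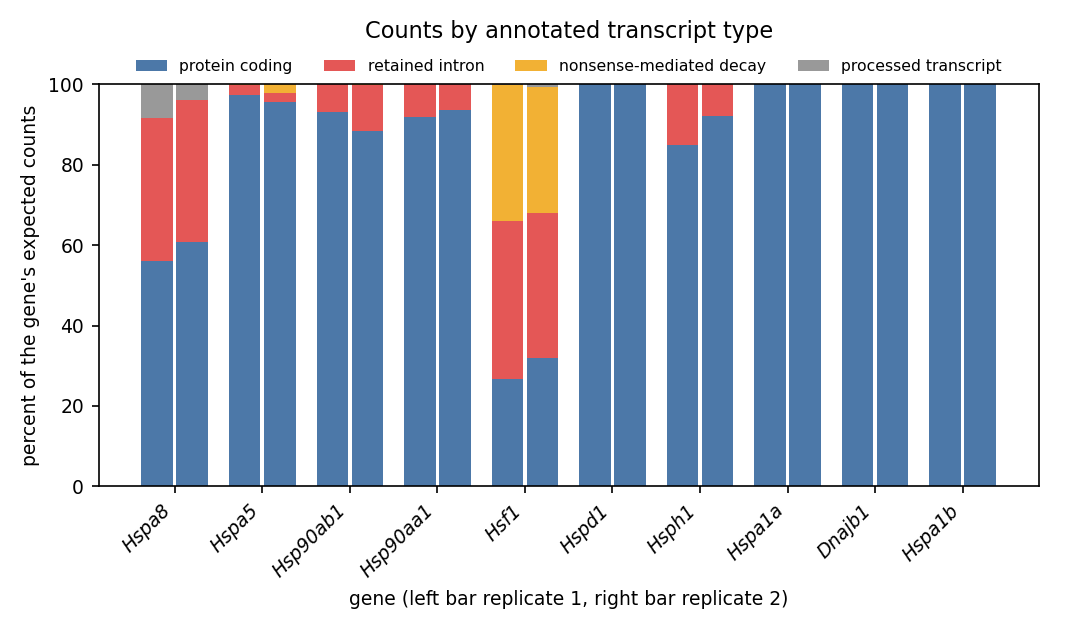
Percent of each gene's expected counts assigned to protein-coding, retained-intron, nonsense-mediated decay and processed transcripts; the left bar of each pair is replicate 1 and the right bar replicate 2. Hspa8 and Hsf1 have the tallest retained-intron segments (means of 35.5% and 37.7%), and Hsf1 is the one gene with a large decay segment.

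Over the 10 genes as a set, the retained-intron share stood near that of all protein-coding genes by counts and above it by TPM. Over all of them, retained-intron transcripts held 16.7% and 15.5% of counts, a mean of 16.1% ± 0.80, beside 15.5% ± 0.676 over all protein-coding genes. As a share of TPM, in which short transcripts weigh more, it was 25.2% ± 0.753, beside 20.6% ± 1.02. Hspa8 held 103.4 and 80.0 TPM of the 184.4 and 143.2 TPM on these transcripts, so the share of TPM rests largely on this 1 gene. Without Hspa8, chosen after its value was seen, the share of counts was 5.41%, and the share of TPM was not computed. The median over the 6 genes that have such a transcript was 10.3%, beside 17.4% over the 6879 genes. Hspa1a, Hspa1b, Dnajb1 and Hspd1 have only coding transcripts in the annotation, so an intron left in the RNA of the last 2 would not be counted to them. The counts rest on how the quantifier split reads between overlapping transcripts, and the alignment-free tables gave 21.1% and 17.7% over the 10 genes.

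The HSP70 helpers Dnajb1 and Hsph1, both heat-inducible, were in the lowest tier. Dnajb1 (ENSMUSG00000005483.10, chromosome 8, 83608193 to 83612653, plus strand), the main J-domain partner of the stress HSP70s, had 98 and 135 counts, or 2.60 and 2.10 TPM (mean 2.35 ± 0.354). Hsph1 (ENSMUSG00000029657.15, chromosome 5, 149614287 to 149636376, minus strand), the exchange factor, had 177 and 129 counts, or 5.89 and 1.89 TPM (mean 3.89 ± 2.83). Hsph1 was thus the fourth lowest gene in replicate 1 and the second lowest in replicate 2. Its transcripts also differed: the coding form Hsph1-211 made up 29.8% of its TPM in replicate 1 and 64.4% in replicate 2. The retained-intron form Hsph1-208 made up 32.4% and 16.4% of TPM, but 7.90% and 3.12% of counts (13.98 and 4.03). All 3 retained-intron transcripts of Hsph1 held 2.59 and 0.42 TPM on 26.7 and 10.2 counts, so its TPM leans on few counts. The TPM of the gene Hsph1 in replicate 2 lies below the interval of 2.03 to 4.49 TPM deposited beside it. The sources used here do not give the interval's level. Of the 20 TPM values of the 10 genes, 5 lie outside their interval, those of Hspa8 and Hspa5 in both libraries and this one.

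Of the cytosolic HSP90 genes, the constitutive Hsp90ab1 was above the more inducible Hsp90aa1. Hsp90ab1 (ENSMUSG00000023944.14, chromosome 17, 45567775 to 45573271, minus strand) had 2045 and 2419 counts, or 80.4 and 62.0 TPM (mean 71.2 ± 13.0). Hsp90aa1 (ENSMUSG00000021270.13, chromosome 12, 110690605 to 110702728, minus strand) had 1112 and 1202 counts, or 38.1 and 24.4 TPM (mean 31.3 ± 9.67). The ratio of their TPM was 2.11 and 2.54 within the libraries, and 1.34 and 2.32 in the alignment-free tables, so the order held in all 4. Most counts were on coding transcripts, with retained-intron shares of 9.20% ± 3.22 for Hsp90ab1 (24.9% and 35.2% of TPM) and 7.36% ± 1.29 for Hsp90aa1. For Hsp90aa1 the tables differ: the alignment-free ones gave a retained-intron share of 22.8% and 13.6% of counts, and by TPM the aligned tables gave 30.1% and 30.6%. By mean share of TPM the retained-intron form Hsp90aa1-205 led in the alignment-free tables, with 27.9% and 23.9%, although the coding form Hsp90aa1-201 was above it in replicate 2 at 26.0%. The aligned tables put the coding form Hsp90aa1-202 first in both libraries. By this mean Hsp90aa1 was the 1 gene of the 8 with several transcripts whose leading transcript differed between the tables.

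Hspd1, the mitochondrial HSP60, was detected at an intermediate level together with its lid Hspe1. Hspd1 (ENSMUSG00000025980.14, chromosome 1, 55077835 to 55088243, minus strand) had 541.8 and 559.0 counts, or 19.2 and 11.3 TPM (mean 15.3 ± 5.62). Hspe1 starts from the same region on the opposite strand, overlaps Hspd1 by 112 bases, and had 83 and 88.0 counts, or 10.5 and 6.39 TPM. Their TPM ratio was nearly the same in both libraries, at 1.83 and 1.77 for Hspd1 to Hspe1. The alignment-free tables reversed the order of the 2 genes, with ratios of 0.636 and 0.654, so which is higher depends on the quantification. A ratio that differs little between 2 libraries is not particular to this pair. That of Hsp90aa1 to Hsf1 was 1.54 and 1.52 in the gene tables.

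Hspa5, the endoplasmic reticulum HSP70 also called BiP, overlapped Hspa8 in level. Hspa5 (ENSMUSG00000026864.13, chromosome 2, 34771970 to 34777547, plus strand) had 6319 and 10418 counts, or 209.9 and 231.4 TPM, a mean of 220.6 ± 15.2 TPM (SD, n = 2). Its coding transcripts held 97.3% and 95.6% of counts but 82.0% and 73.5% of TPM. Its retained-intron transcripts held 2.33% ± 0.28 of counts and 13.7% ± 3.66 of TPM. No stretch of 50 bases in it occurs in another gene. Hspa5-202 made up 65.6% and 65.2% of its TPM. The short decay form Hspa5-204 was assigned 12.6 counts in replicate 1 and 239.5 in replicate 2, which is 1.67% and 15.4% of the gene's TPM, and 113.9 and 386.2 counts in the alignment-free tables.

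With 1 library on each side, a difference between the libraries has no replicate check, and it was described by its size. The log2 ratio of replicate 2 to replicate 1 was taken on log2(TPM + 1) for genes whose counts reached 10 in each library, and called past 2-fold. Over 14584 genes its median was -0.42 in the deposited TPM, and 0.03 with TMM scaling of counts, so ratios are given relative to the median of all genes. As deposited, 0 of the 10 genes were over 2-fold higher in replicate 2, beside 0.357% of all genes, and 1 was over 2-fold lower, Hsph1 at -1.25, beside 3.54%. Relative to the median, 0 of the 10 were higher, beside 1.22%, and 0 lower, beside 0.487%, with Hsph1 at -0.83. With a pseudocount of 0.1, 0 were higher (2.76% of all genes) and Hsph1 was lower at -1.05 (1.93%). In the alignment-free tables with that pseudocount, 0 were higher (3.38%) and Hsph1 was lower at -1.01 (3.05%). Hsph1 was therefore on the low side in replicate 2 under every scaling tried, with TMM at -0.61, and its call turned on the pseudocount and the centring.

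The other 9 genes kept within 2-fold in all of these. Hspa1a and Hspa5 were higher in replicate 2 under each scaling, at 0.57 and 0.56 relative to the median and 0.15 and 0.14 as deposited. Hspd1, Hsf1 and Hsp90aa1 were lower under each, at -0.30, -0.17 and -0.20 relative to the median. For Hspa8, Hspa1b, Hsp90ab1 and Dnajb1 the sign depended on the scaling: Hspa8 was at -0.12 relative to the median and 0.23 with TMM, and the other 3 were below 0 as deposited and above 0 relative to the median. The inducible cytosolic genes did not move as a block, since Hspa1a was at 0.57 and Hsph1 at -0.83 relative to the median, while the median of the 10 was -0.03. RNA input was 500 ng for replicate 1 and 1 µg for replicate 2, and the part of input or depth in these differences cannot be told apart from that of the replicate.

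**Figure D3:**
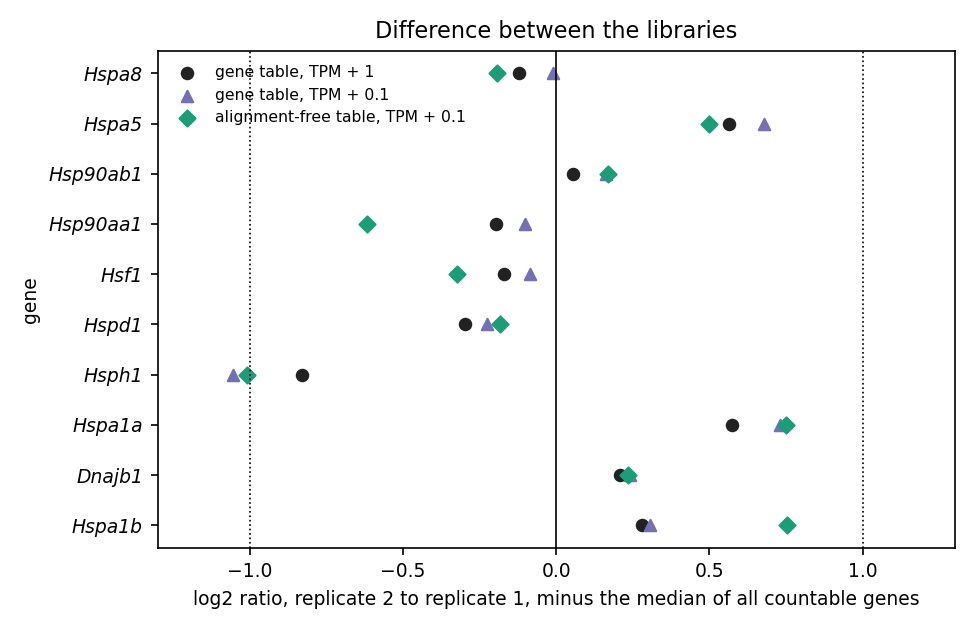
Log2 ratio of replicate 2 to replicate 1 for each gene, minus the median of all countable genes; black circles use the gene table with TPM + 1, purple triangles TPM + 0.1, and green diamonds the alignment-free table with TPM + 0.1. Dotted lines mark 2-fold: Hsph1 reaches the lower one by 2 of the 3 measures (-0.83, -1.05 and -1.01), and no gene reaches the upper one.

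The wider chaperone network was then described from 8 lists of 86 further genes, of which 68 were detected and 73 countable, and relative to the median 0 of the 73 were over 2-fold higher in replicate 2, beside 1.22% of all genes, and 0 lower, beside 0.487%. The other scalings called 3 genes, named after their values were seen. The chaperonin subunit Cct6a was lower as deposited, at -1.27, 1 of 73 beside 3.54% of all genes. In the alignment-free tables, with 76 countable, 1 was lower, Cct6a at -1.07, beside 3.05%. There 2 were higher, Hspb1 and Hsf5 at 1.31 and 1.32, beside 3.38%. In the gene tables Hspb1 (4.73 and 5.82 counts) and Hsf5 (9 and 12 counts) were not countable. Among 10 HSP70 relatives, 6 were detected, and none came near Hspa8 or Hspa5: the mitochondrial Hspa9 had 29.7 ± 5.59 TPM, the exchange factor Hspa4 28.9 ± 9.03, the reticulum exchange factor Hyou1 27.7 ± 8.52, and Hspa12a 2 counts in each library. The reticulum HSP90 Hsp90b1 had 164.8 ± 41.2 TPM and the mitochondrial Trap1 17.4 ± 3.15. In the compartment of Hspa5, all 14 genes listed for reticulum folding and the unfolded protein response were detected, with a median of 4.69 ± 0.39 on the log2(TPM + 1) scale, led by the lectin chaperones Calr at 232.7 ± 53.9 TPM and Canx at 129.1 ± 41.3 and the disulfide isomerase P4hb at 52.7 ± 8.44, and Sdf2l1 was the lowest at 5.25 ± 0.099.

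The J-domain genes ranged from far above Dnajb1 to below it. Of 17 listed, 16 were detected, with Dnajb6 at 110.1 ± 21.7 TPM, Dnajc7 at 81.2 ± 13.4, Dnaja1 at 60.8 ± 16.9, and Dnaja4 lowest with 7.97 and 2 counts. Of 18 other HSP70 and HSP90 cochaperones, 17 were detected, with Bag6 at 62.4 ± 11.7 TPM, the ubiquitin ligase Stub1 at 29.98 ± 10.1, the HSP90 activator Ahsa1 at 26.6 ± 11.7, and Bag2 lowest with 15 and 2 counts. All 9 chaperonin genes, Hspe1 and the subunits of the cytosolic ring, were detected at close levels. Tcp1 had 22.2 ± 6.79 TPM, Cct8 20.7 ± 1.07 and Cct2 19.3 ± 6.97, and Hspe1 was the lowest at 8.45 ± 2.91. Of these 9, Cct8 alone was above the median of all genes in its library ratio on log2(TPM + 1), Cct6a was furthest below at -0.85, and the list's median was -0.21. With a pseudocount of 0.1, and in the alignment-free tables, 2 of the 9 were above.

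Genes listed as small heat shock proteins were mostly below the detection limit. Of 10, 1 was detected, Hspb11 at 2.17 ± 1.34 TPM. It was listed by its symbol, and a chaperone role for it was not examined. Hspb9 had 1.72 and 0.85 TPM, and Hspb6 had 1.33 and 0.66 TPM. Cryab had 0 counts in both libraries, which allows a level of up to 0.222 and 0.167 CPM (counts scaled to the library total). Among 6 genes of heat shock factors and their partners, 3 were detected and all were below Hsf1: the factor-binding Hsbp1 had 10.2 ± 3.68 TPM, Hsf2 5.15 ± 2.14 and Hsf4 4.54 ± 0.403, and Hsf2bp had 0 counts in the gene tables. The lists describe these libraries only, and their counts of detected genes stand beside the 44.5% of all protein-coding genes.

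**Figure D4:**
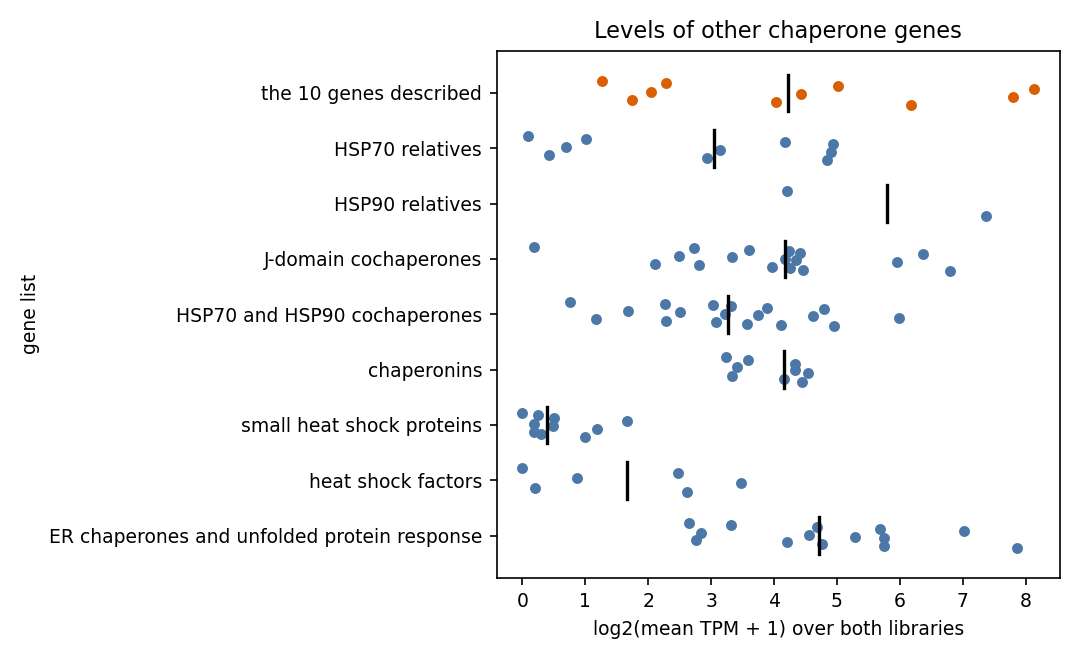
Each point is a gene, placed by log2(mean TPM + 1) over both libraries; orange points are the 10 genes described and blue points the members of each list, and black bars are the medians of the points. Hspa8 and Hspa5 lie with Calr and Hsp90b1 at the right, and the genes listed as small heat shock proteins lie below 2.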

How the data were processed

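Ribosomal-RNA-depleted RNA from 2 libraries of 1 group was measured. Expected counts with their posterior SDs, TPM with its intervals, and each transcript's percent of its gene come from the authors' transcriptome alignment (mm10, GENCODE M21), per the deposited readme. Estimated counts and TPM of the alignment-free tables were made by the authors from reads and an index, per the same readme. The sources used here name neither the quantifiers nor the use of strand. TPM is relative to all rows of a table; short RNAs dominate the alignment-free tables (Gm12896 at 134661 TPM in replicate 1, Gm24245 at 237782 in replicate 2), so absolute TPM levels in them are not on the scale of the gene tables. Rows that name no gene (0.350% and 0.0785% of counts) were left out.

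From these, means ± SD, log2(TPM + 1) levels, library ratios (at least 10 counts in each library), transcript-type shares of counts, stretches of 50 bases shared between genes (both strands) and promoter matches were computed with Python 3.11.15, pandas 2.3.3 and numpy 2.4.6. TMM factors (edgeR 4.0.16) and size factors (DESeq2 1.42.0, R 4.3.3) used counts rounded to whole numbers. The ratio calls were tested on simulated data with counting error only and large changes in genes with many counts. That simulation does not cover changes near 2-fold or genes with few counts. Detection means at least 1 TPM in both libraries, and a count of 0 was read as allowing 3 counts, for counting error only. With 1 group, no test or p-value was computed. All 10 genes are named, and of each other list the 3 highest and the lowest by mean TPM; Hspa8 left out, Cct6a, Hspb1, Hsf5, Gm9403, and single transcripts were chosen after their values were seen. The genes and lists were chosen with earlier results of these data known.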

Additional observations from a re-analysis of the deposited data

How the results depend on the processing

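The median level of the 10 genes (4.19) was 4.69 with TPM rescaled without mitochondrial and very short genes, 5.20 from CPM, 2.84 in the alignment-free tables, and 3.86 to 4.51 with either library left out. Of the 10 genes detected, 6 remained at a limit of 5 TPM and 6 in the alignment-free tables. The median library ratio (-0.46 as deposited) was 0.16 with TMM factors and 0.18 with DESeq2 size factors, which reverse it, -1.62 in the alignment-free tables, and -0.0081 there with a pseudocount of 0.1 relative to its own median, an alternative chosen after seeing the data. The retained-intron share (16.1%) was 10.3% as a median over genes, 19.4% in the alignment-free tables, 15.5% to 16.7% with either library left out, 5.41% without Hspa8 and 25.2% as a share of TPM, the last 2 chosen after seeing the data. The cause of these shifts was not tested. For single genes, and apart from leaving out a library and genes with 1 transcript, 24 values moved by more than the spread between libraries and 6 by less. These values are levels and shares, which cannot change sign. Some set alignment-free levels, which are on another scale, beside those of the gene tables. With 2 libraries and no untreated cells, depth limits Hspa1b, Dnajb1, Hspa1a and Hsph1 most. No paired analysis was possible because the 2 libraries form 1 group.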

Other observations

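Processed pseudogenes are intronless copies of an mRNA, and Hspa8, Hsp90aa1 and Hspd1 share long stretches with theirs. The largest share for Hspa8 was with Gm15459 on chromosome 5, which holds 34.6% of the stretches of 50 bases in Hspa8 and was given 64.4 and 49.0 counts. For Hsp90aa1 it was Gm12346 on chromosome 11, with 41.8% of the stretches and 25.4 and 33.5 counts. For Hspd1 it was Hspd1-ps3 on chromosome 11, with 38.0% of the stretches and 16.2 and 8.01 counts. Each of these was far below its parent gene in both libraries.

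The processed pseudogene Gm9403 on chromosome 3, chosen after its values were seen, shares 6 such stretches (0.186%) with Hsp90ab1. So small a share does not show of which gene Gm9403 is a copy. It was given 37.5 and 20.99 counts in the gene tables and 249.5 and 63.7 in the alignment-free tables.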
